A study of Homo sapiens with 17 samples.

Results

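A set of 10 chaperone genes was followed here: the cytosolic HSP70 genes HSPA8, HSPA1A and HSPA1B, the HSP110 gene HSPH1, the J-domain gene DNAJB1, the HSP90 genes HSP90AA1 and HSP90AB1, the small heat shock gene HSPB1, and the mitochondrial chaperonin genes HSPD1 and HSPE1. They were chosen by name, with no measured value in the rule, and were 10 of the 23368 genes in the count table. Poly(A) RNA of 293T cells, a human embryonic kidney line, had been profiled by acRIP-seq, in which RNA carrying N4-acetylcytidine (ac4C) is captured with an antibody and sequenced. The study asked which mRNAs carry ac4C and how this depends on TDP43, an RNA-binding protein encoded by TARDBP. There were 6 groups: WT input RNA (n = 3), WT RNA pulled down with the anti-ac4C antibody (IP, n = 3), WT RNA pulled down with control immunoglobulin (IgG, n = 2), and the same input, IP and IgG libraries from cells treated with siRNA against TARDBP (siTDP43, n = 3 each). The labels name no control siRNA for the WT cells and give no separate cultures for the replicates, so p-values measure the spread between these libraries, and any effect of transfection cannot be told apart from that of siTDP43. All libraries came from 1 cell line.

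Chaperones bind unfolded or partly folded proteins. HSP70 proteins cycle on and off their clients with ATP, J-domain proteins deliver the clients and start the ATP cycle, and HSP110 proteins such as HSPH1 exchange the nucleotide. HSP90 acts later on signalling proteins and kinases, small heat shock proteins such as HSPB1 hold clients without ATP, and HSPD1 with its lid HSPE1 forms the folding chamber of mitochondria. HSPA8 and HSP90AB1 are the constitutive cytosolic forms, whereas HSPA1A, HSPA1B, DNAJB1 and HSPH1 are classic targets of heat shock factor 1 (HSF1), which binds alternating GAA and TTC units called heat shock elements.

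Promoters of the 10 genes were read from RefSeq (GRCh38.p14). The genes were picked by name as heat shock genes, so frequent matches say nothing about their changes in input RNA. A pair of adjoining units, GAANNTTC or TTCNNGAA, was present on either strand in the 250 bases before at least 1 annotated start of 8 of the 10 genes, against 14% of 27305 genes and 24.6% of 61 companion genes named further on. HSPH1 and HSPE1 had no match in these windows. A run of 3 alternating units, which contains a pair, was present in HSPA8, HSP90AA1, HSP90AB1 and HSPD1, and in 0.56% of the 27305 genes. The letters were found by search and were not tested as binding sites. The sequences below show the genes on which the results turn, 5′ to 3′ on the gene's strand with the matched units in capitals. For HSPA8 and HSPD1, 30 bases around each match are given.
HSPA8 (chr11:123062346-123062375): ggcgagcttGAAAGTTCCAGAAcgctgcgg
HSPA8 (chr11:123062171-123062200): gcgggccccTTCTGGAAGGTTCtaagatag
HSPD1 (chr2:197500061-197500090): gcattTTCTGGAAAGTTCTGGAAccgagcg
HSP90AB1 (chr6:44247693-44247865): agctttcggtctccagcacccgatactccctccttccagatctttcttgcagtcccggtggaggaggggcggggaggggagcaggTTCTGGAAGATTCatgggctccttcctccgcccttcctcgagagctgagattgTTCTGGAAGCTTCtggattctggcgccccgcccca
HSP90AA1 (chr14:102087045-102087294): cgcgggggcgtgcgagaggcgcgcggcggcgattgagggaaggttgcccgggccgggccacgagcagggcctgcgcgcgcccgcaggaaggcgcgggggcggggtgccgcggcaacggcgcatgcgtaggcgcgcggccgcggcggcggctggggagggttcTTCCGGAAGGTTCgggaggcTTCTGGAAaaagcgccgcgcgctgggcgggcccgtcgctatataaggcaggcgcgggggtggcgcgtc
HSPB1 (chr7:76302423-76302672): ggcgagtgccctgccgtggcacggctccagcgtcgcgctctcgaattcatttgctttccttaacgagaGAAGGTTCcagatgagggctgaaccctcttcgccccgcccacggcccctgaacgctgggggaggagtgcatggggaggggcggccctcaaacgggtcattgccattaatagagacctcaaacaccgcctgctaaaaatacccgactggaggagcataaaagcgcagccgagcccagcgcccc
HSPA1A (chr6:31815293-31815542): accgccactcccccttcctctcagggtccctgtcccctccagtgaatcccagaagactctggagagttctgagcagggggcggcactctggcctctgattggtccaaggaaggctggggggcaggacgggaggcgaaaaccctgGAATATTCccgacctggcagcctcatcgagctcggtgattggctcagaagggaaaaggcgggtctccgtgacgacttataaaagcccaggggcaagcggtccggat
HSPA1B (chr6:31827488-31827737): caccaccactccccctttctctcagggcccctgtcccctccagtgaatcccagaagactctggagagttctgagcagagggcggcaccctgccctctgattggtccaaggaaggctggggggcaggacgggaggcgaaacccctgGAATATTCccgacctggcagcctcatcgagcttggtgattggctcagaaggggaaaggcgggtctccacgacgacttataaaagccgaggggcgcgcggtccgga

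HSPA1A and HSPA1B are neighbours on chromosome 6 (hg19 chr6:31783291-31785719 and chr6:31795512-31798031, both on the plus strand with 1 exon). Their promoters above shared 235 of 249 aligned bases. Of all windows of 100 bases, 71.5% of those in HSPA1A and 68.8% of those in HSPA1B were exact copies of a window in the other gene. The study's methods state that uniquely mapped reads were used for the counts. Both genes are also annotated on alternative haplotypes, which were not searched for copies. With unique mapping, reads matching both genes equally, or a haplotype copy if the alignment held it, would be left out. HSPA1A and HSPA1B may thus both be undercounted, which was not tested. With their counts summed, WT IP was 1.54 over input and 1.27 over IgG on the log2 scale, but a sum does not restore reads left out. HSPD1 (hg19 chr2:198351308-198364998, minus strand) and HSPE1 (chr2:198364721-198368187, plus strand) overlap head to head. HSPE1 also overlaps HSPE1-MOB4, which lies on the same strand. The exon bases that HSPE1 shares with HSPD1 and with HSPE1-MOB4 add up to 723, where a base shared with both is counted for each. The strand setting of the count was not given, and no setting would separate HSPE1 from HSPE1-MOB4, so reads of these overlaps cannot be assigned with certainty. HSPB1 (chr7:75931875-75933614) had the highest GC content in its exons, 64.3%, and HSPH1 (chromosome 13) the lowest, 42.1%. This matters below, because one alternative, in which the trend of each library with exon GC content was removed, changed several values.

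Total counts per library were 24542434 to 36583436 in the inputs, 8610070 to 21066215 in the IP and 3013989 to 9466855 in the IgG libraries. TARDBP was at 150, 157 and 151 CPM (read counts scaled to library size, with TMM factors) in WT input and at 98.7, 102 and 106 in siTDP43 input, a fall of 0.57 on the log2 scale (SE 0.0451, edgeR adjusted p = 6.55e-13). Genes listed as markers of 293T cells were scaled by total counts alone, without TMM factors. Of these 10 genes, 9 exceeded 1 CPM in every input library (not PAX2). The summed level of the 10 was 1425 to 1438 CPM in WT and 759 to 811 CPM in siTDP43. This sum moved with the knockdown, and its part in the results was not tested.

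In WT input the order of the levels, as CPM per kb of exon, ran from HSP90AB1 at 651 ± 4.64 (SD, n = 3) through HSPD1 at 461 ± 18.3 and HSPA8 at 375 ± 7.96 to HSPB1 at 160 ± 4.62, HSPE1 at 139 ± 2.59 and HSP90AA1 at 94.2 ± 1.77. DNAJB1 at 50.1 ± 1.93 and HSPA1B at 46.5 ± 1.97 followed with overlapping libraries, then HSPH1 at 10.2 ± 0.519 and HSPA1A at 0.471 ± 0.0994. No other neighbours in this order overlapped. Reads matching both HSPA1A and HSPA1B may be missing from the counts, so the places of these genes in the order are uncertain. The place of HSPE1 is uncertain as well, because its exons overlap those of other genes. The length of HSPA1A and HSPA1B was that of the chromosome 6 copy, since the length in the table also counts alternative haplotypes, and with the latter HSPA1B fell behind HSPH1. In siTDP43 input HSPA8 came first, at 1360 ± 15.5 CPM per kb, ahead of HSP90AB1 at 1320 ± 4.96, and HSP90AA1 at 164 ± 2.09 moved past HSPE1 at 146 ± 20.2 and HSPB1 at 100 ± 4.46. HSP90AA1 and HSPE1 overlapped there. Together the 10 genes took 0.489 to 0.5% of all counts in WT input and 0.942 to 0.953% in siTDP43 input. In pull-downs they took 0.701 to 0.713% in WT IP, 1.139 to 1.161% in WT IgG, 1.115 to 1.18% in siTDP43 IP and 0.951 to 0.968% in siTDP43 IgG.

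**Figure D1:**
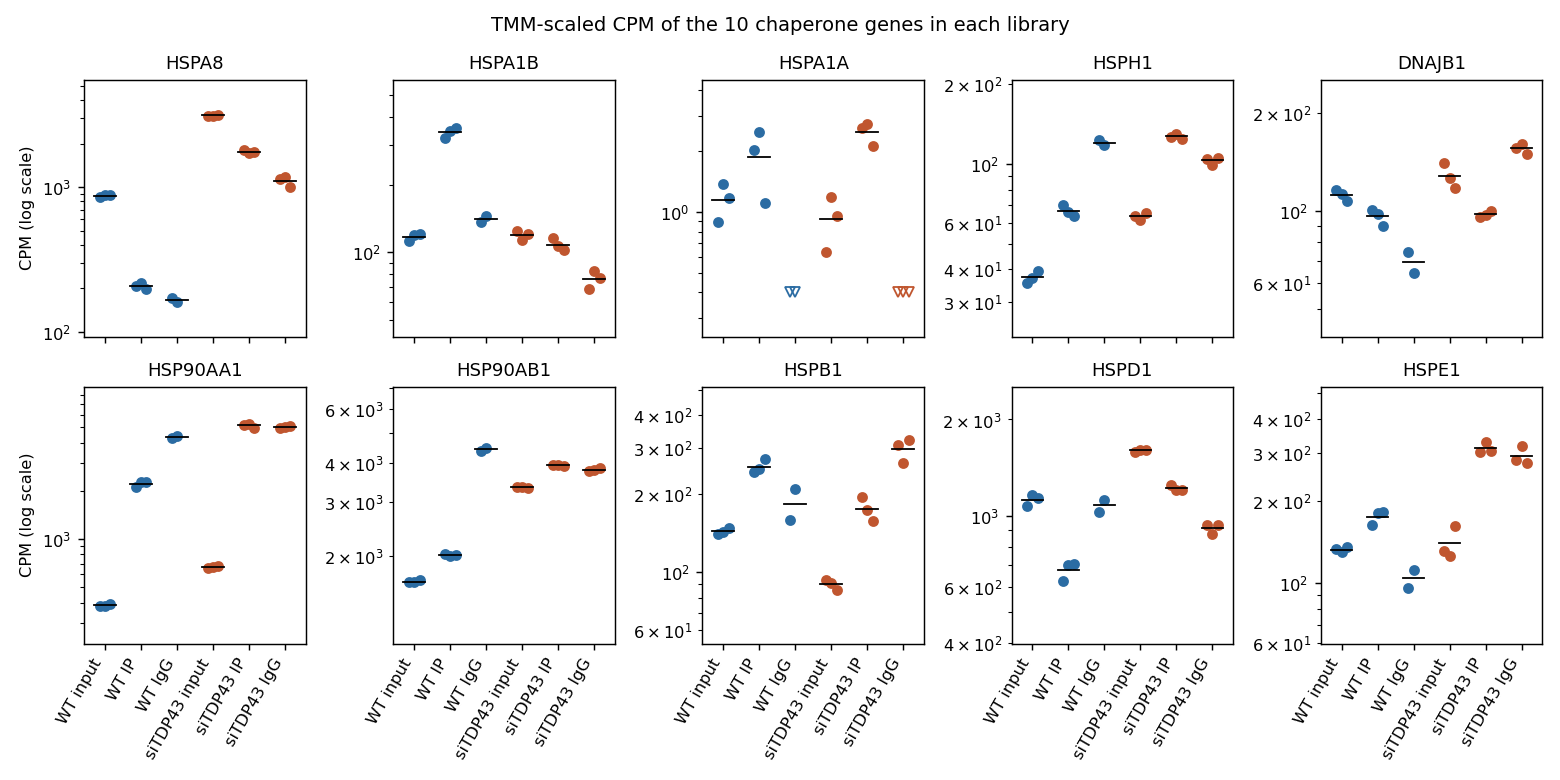
TMM-scaled CPM (log axis, a separate scale in each panel) of each chaperone gene in every library; points are libraries, bars group means, blue WT and red siTDP43, and open triangles mark libraries with 0 counts. HSPA1B stands highest in WT IP (321 to 358 CPM), and HSPA8 is higher in siTDP43 than in WT in each kind of library.

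The first comparison asked how the chaperone mRNAs differed in input RNA between siTDP43 and WT cells. Of the 10 genes, 6 were higher and 1 was lower in siTDP43 at an edgeR adjusted p under 0.05, while 38.6% of all 14036 genes tested were called higher and 40.6% lower. The median log2 change was 0.36 over the 10 genes and -0.05 over all genes tested. In bulk RNA a change in the number of cells of a kind and a change of RNA per cell cannot be told apart. HSPA8, the constitutive HSP70, showed the largest rise of the 10.

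HSPA8 was at 849, 876 and 885 CPM in WT input and at 3130, 3110 and 3180 CPM in siTDP43 input. The groups were far apart, and the rise was 3.62-fold (log2 1.86, SE 0.0342, edgeR adjusted p = 8.33e-29). HSPA1B was at 112, 119 and 121 CPM in WT and at 124, 114 and 121 CPM in siTDP43, so that the libraries overlapped. The log2 change of this stress-inducible HSP70 was 0.03 (SE 0.0471, 95% interval -0.06 to 0.13, edgeR adjusted p = 0.522), although with the GC trend removed it was 0.37 and passed the test. HSPA1A had 27, 54 and 41 counts in WT and 20, 30 and 27 counts in siTDP43 (log2 change -0.32, SE 0.372, edgeR adjusted p = 0.427). Reads that it shares with HSPA1B may be missing from these low counts, which was not tested. HSPH1 was at 35.6, 36.9 and 39.4 CPM in WT and at 63.5, 61.3 and 65.4 CPM in siTDP43, a rise of 1.70-fold (edgeR adjusted p = 5.84e-13). DNAJB1, the J-domain partner of HSP70, was at 116, 113 and 107 CPM in WT and at 140, 126 and 118 CPM in siTDP43. Its rise of 1.15-fold (edgeR adjusted p = 0.00101) was no longer called with total count scaling (log2 0.11).

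Both HSP90 genes rose. HSP90AB1, the constitutive form, was at 1640, 1650 and 1670 CPM in WT and at 3350, 3350 and 3330 CPM in siTDP43, a 2.03-fold rise (log2 1.02, SE 0.0324, edgeR adjusted p = 6.93e-23). HSP90AA1, the inducible form, was at 379, 380 and 392 CPM in WT and at 659, 669 and 676 CPM in siTDP43, a 1.75-fold rise (log2 0.81, SE 0.0365, edgeR adjusted p = 6.64e-19). The libraries of siTDP43 lay above those of WT for both genes, as they did for 38.7% of the 14036 genes tested, with 41.6% below.

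HSPB1 was the gene called lower, at 140, 143 and 148 CPM in WT and 93.3, 91.2 and 85.5 CPM in siTDP43 (62.8% of WT, log2 -0.67, SE 0.0475, edgeR adjusted p = 5e-14). This direction depended on the processing: with the GC trend removed the log2 change of HSPB1 was 0.19. The mitochondrial pair differed. HSPD1 was at 1070, 1160 and 1140 CPM in WT and at 1580, 1610 and 1600 CPM in siTDP43 (1.43-fold, log2 0.51, SE 0.0357, edgeR adjusted p = 3.12e-14). HSPE1 was at 133, 130 and 135 CPM in WT and at 131, 126 and 162 CPM in siTDP43, where the third library stood apart (log2 0.08, SE 0.0582, edgeR adjusted p = 0.189, and -0.03 without that library, but called at 0.14 and 0.15 without the first or the second).

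**Figure D2:**
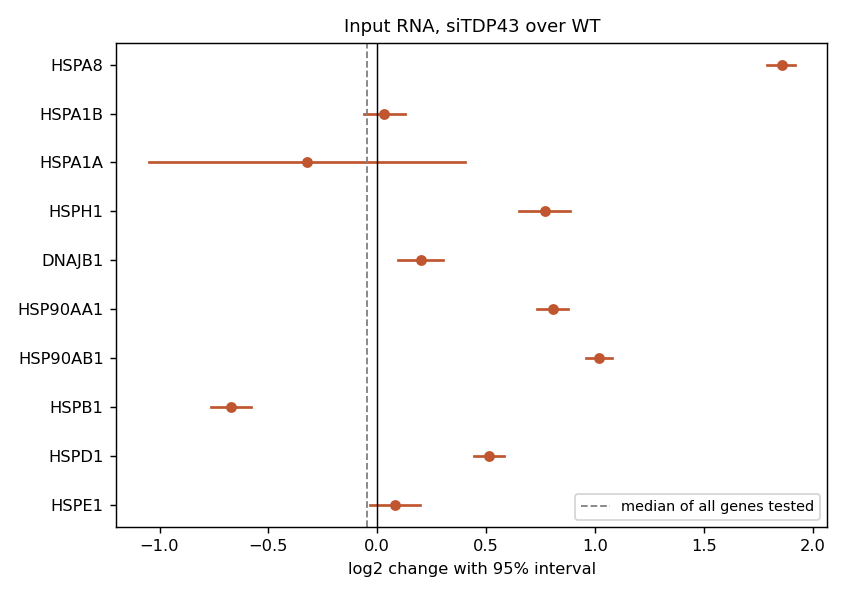
Log2 change of each chaperone gene between siTDP43 and WT input RNA (points) with 95% intervals from the edgeR fit (lines); the dashed line is the median of all genes tested. HSPA8 lies at 1.86 and HSPB1 at -0.67, and the intervals of HSPA1B, HSPA1A and HSPE1 reach across 0.

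The wider chaperone network was read from 9 lists of textbook membership holding 74 companion genes, of which 69 were tested in the inputs. There, 37 were called higher and 24 lower in siTDP43, beside 38.6% and 40.6% of all genes tested, and differences between lists were not tested. Of the 8 subunits of TRiC, the cytosolic chaperonin, 7 rose and TCP1 fell, with a median log2 change of 0.47. Of 11 HSP90 co-chaperones 8 rose and 2 fell. Among mitochondrial chaperones 7 of 10 rose and 3 fell. Among J-domain proteins 5 of 8 rose and 3 fell, and the HSP40 genes DNAJA1 (3.46-fold) and DNAJA2 (3.39-fold) rose most. Of 6 tested HSP70 and HSP110 relatives 4 rose and none passed the test downwards. HSP70 exchange factors and partners went both ways, 3 rising and 4 falling of 8.

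Of 11 chaperones of the endoplasmic reticulum (ER), 2 were called higher and 7 lower, beside 38.6% and 40.6% of all genes tested. HSPA5, the HSP70 of the ER, was at 3150, 3220 and 3250 CPM in WT input and at 633, 632 and 628 CPM in siTDP43 input, a fall to 19.8% (edgeR adjusted p = 2.67e-31). HSP90B1, the HSP90 of the ER, fell by 0.82 on the log2 scale (edgeR adjusted p = 5.2e-19). The 3 genes tested from the list of small heat shock proteins, CRYAB, HSPB8 and HSPB11, were called lower. HSPB8 was at 2.69% of WT (edgeR adjusted p = 6.16e-23). BAG3, the exchange factor that pairs with HSPB8, fell to 28.4% (edgeR adjusted p = 9.93e-14), and the ubiquitin ligase STUB1 fell to 18.6% (edgeR adjusted p = 4.65e-19). HSF1, the transcription factor of the heat shock response, was lower by 0.86 on the log2 scale (log2 -0.855, edgeR adjusted p = 4.25e-13), but with the GC trend removed the change was -0.02 and was not called. Of the 4 genes listed with it, HSF1 was the one called lower and HSBP1, which encodes a protein that binds heat shock factors, the one called higher. STIP1, which hands clients from HSP70 to HSP90, rose 1.40-fold. HSPA9, the mitochondrial HSP70, rose 1.24-fold, a call lost with the GC trend removed and the replicate block (log2 0.06, edgeR adjusted p = 0.0688).

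**Figure D3:**
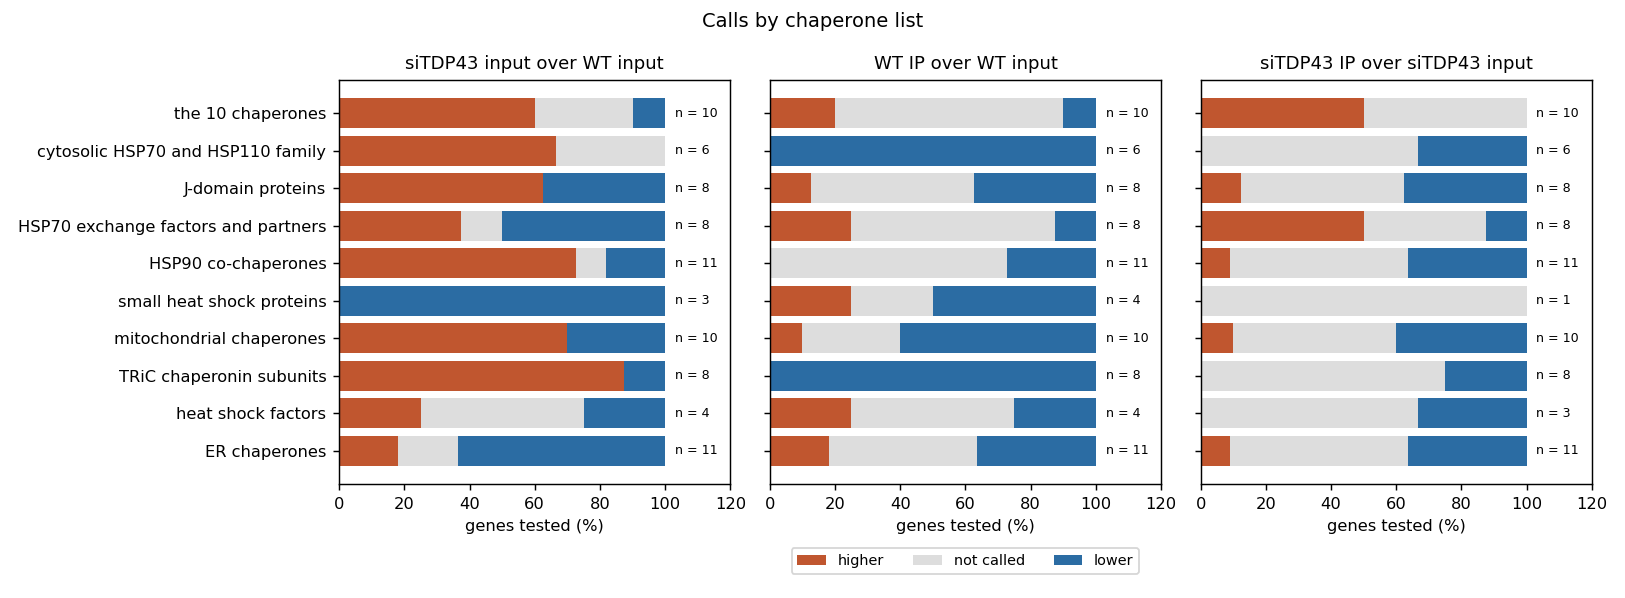
Share of the tested genes of each chaperone list called higher (red), not called (grey) or called lower (blue) by edgeR in 3 comparisons; n is the number of genes tested. The 7 of 8 TRiC subunits that rose in siTDP43 input and the 8 of 8 called lower in WT IP over input can be read beside 2 higher and 7 lower of 11 ER chaperones in the inputs. Of all genes tested, 38.6% were called higher and 40.6% lower in the inputs, and 27.3% lower in WT IP over input.

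The next comparison asked which chaperone mRNAs were enriched by the anti-ac4C antibody in WT cells. Enrichment was called at an edgeR adjusted p under 0.05 with a change above 2-fold, against input and against IgG. Over WT input, 2 of the 10 genes were called higher and 1 lower, beside 30.2% and 27.3% of the 14751 genes tested. Over WT IgG, 2 were called higher and 1 lower, beside 35.2% and 17.8%. In the IgG pull-down itself 3 were higher and 2 lower than in input, beside 24.4% and 36.6%. HSPA1B was the gene of the 10 called higher against both references.

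HSPA1B was at 321, 345 and 358 CPM in WT IP against 112, 119 and 121 CPM in input and 137 and 145 CPM in IgG. Every IP library lay above every other WT library. Of all 14751 genes tested, 43.2% had the IP libraries above those of input and 43.7% below. Against IgG these shares were 49.6% and 34.7%. IP was 2.93-fold over input (log2 1.55, SE 0.0553, edgeR adjusted p = 5e-18) and 2.39-fold over IgG (log2 1.26, SE 0.0659, edgeR adjusted p = 2.72e-14). The second ratio fell below the 2-fold threshold with the GC trend removed (log2 0.81, edgeR adjusted p = 1.28e-10). IgG over input was 1.22-fold, below the threshold. HSPA1A, its near copy, had 49, 61 and 25 counts in IP and 0 in both IgG libraries, which makes it at least 6.25-fold higher than 3 counts per IgG library, and its log2 change over input was 0.71 (SE 0.383, edgeR adjusted p = 0.0887). Against input, HSPA1A was at least 3.82-fold lower in IgG. With limma on log2(FPKM + 1) both of these calls were lost.

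HSPA8 went the other way. It was at 207, 216 and 196 CPM in WT IP and at 170 and 161 CPM in IgG, against 849 to 885 CPM in input, so that both pull-downs were depleted. IP was 23.8% of input (edgeR adjusted p = 3.25e-21) and IgG was 19.4% of input (edgeR adjusted p = 2.69e-20). IP over IgG was 1.23-fold, below the threshold.

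The HSP90 genes were recovered with both antibodies. HSP90AA1 was at 2110, 2280 and 2280 CPM in IP, 5.83-fold over input (log2 2.54, edgeR adjusted p = 1.62e-23), but at 4270 and 4380 CPM in IgG, 11.5-fold over input (log2 3.52, edgeR adjusted p = 2.46e-24). Its IP was thus 50.7% of IgG (log2 -0.98). This passed the threshold at -1.0 without the third IP library and at -1.02 with the GC trend removed (-1.04 with the replicate block added). HSP90AB1 was at 2030, 2000 and 2020 CPM in IP and at 4390 and 4480 CPM in IgG. Its IP was 1.22-fold over input, below the threshold, and 44.8% of IgG (edgeR adjusted p = 1.29e-16). HSPH1 resembled them, at 70.2, 65.8 and 63.7 CPM in IP and 123 and 118 CPM in IgG, with IgG 3.29-fold over input (edgeR adjusted p = 5.66e-16). Its IP was 1.79-fold over input, and passed the threshold with the GC trend removed (log2 1.37).

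The other members were not called in WT over input or over IgG. HSPB1 was at 242, 248 and 272 CPM in IP and 159 and 208 CPM in IgG, 1.77-fold over input and 1.37-fold over IgG, and both log2 values turned below 0 with the GC trend removed (-0.64 and -0.27). DNAJB1 was at 101, 98 and 90.1 CPM in IP and 74.7 and 64.6 CPM in IgG. HSPD1 was at 627, 704 and 705 CPM in IP, 60.8% of input, and at 1030 and 1120 CPM in IgG. HSPE1 was at 163, 181 and 183 CPM in IP and at 95.5 and 112 CPM in IgG, 1.33-fold over input and 1.67-fold over IgG.

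Among the companions in WT, 8 of 70 tested were called higher and 34 lower in IP over input, beside 30.2% and 27.3% of all genes. The 8 TRiC subunits were lower, with a median log2 change of -1.68 and TCP1 lowest at 11.1% of input, and so were the 6 tested HSP70 and HSP110 relatives. The largest rises that met the naming rule were in DNAJB2 (6.32-fold) and SDF2L1 (3.93-fold, log2 1.97, which was 0.21 and below the threshold with the GC trend removed), and DNAJB9 was at 7.81% of input. In IgG over input the 4 genes named by the same rule were again DNAJB2 (5.42-fold), SDF2L1 (4.29-fold), DNAJB9 (6.65%) and TCP1 (10.4%), and 9 companions were higher and 17 lower in all, beside 24.4% and 36.6% of all genes. These 2 comparisons share the WT input libraries. Over IgG, 8 were higher and 21 lower, beside 35.2% and 17.8% of all genes. The naming rule gave AHSA1 (4.66-fold), an activator of HSP90, and HSPB11 (3.68-fold) among the higher. Among the lower it gave CLPB (15.5%) and HSPA14 (16.3%).

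For the genes followed by name in each comparison, the log2 changes of WT IP over input were -1.34 for HSPA5, 0.84 for HSP90B1, -1.23 for HSPA9, 0.53 for BAG3, 0.49 for HSF1 and -0.69 for STIP1. Over WT IgG they were -0.65, -0.55, -0.71, -1.09, 0.80 and -0.93 in that order, and for WT IgG over input -0.68, 1.39, -0.51, 1.62, -0.31 and 0.25. HSPA5 and HSPA9 were called lower in IP over input, BAG3 lower in IP over IgG, and HSP90B1 and BAG3 higher in IgG over input. With the GC trend removed HSPA9 in IP over input was no longer called (-0.87), while HSP90B1 in IP over input (1.38), STIP1 in IP over IgG (-1.23) and HSF1 in IgG over input (-1.01) passed the threshold, and HSF1 in IP over input turned to -0.92. BAG3 in IP over IgG was not called with total count scaling (-0.96), with limma on log2(FPKM + 1) (-0.895) or without the first WT IgG library (-0.945).

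**Figure D4:**
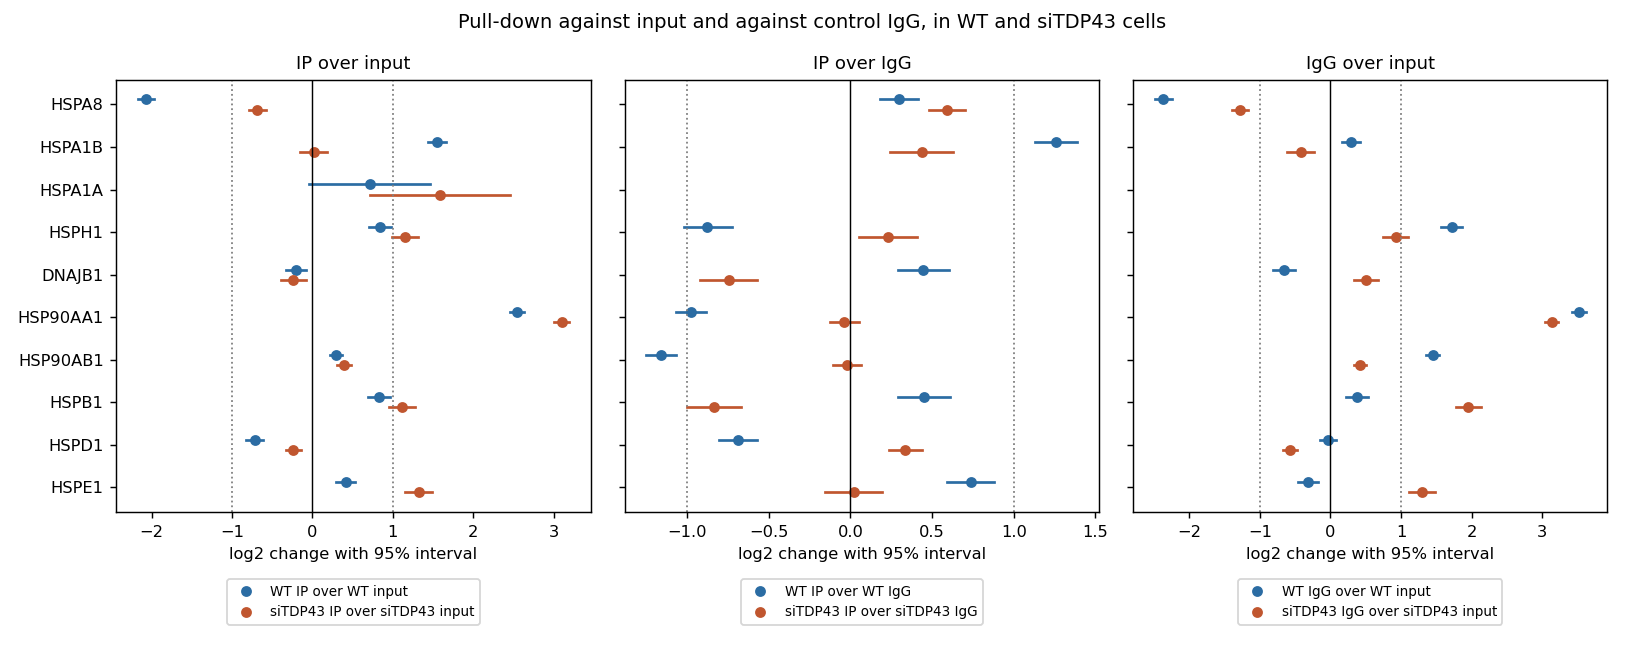
Log2 changes with 95% intervals of IP over input, IP over IgG and IgG over input for each chaperone gene in WT (blue) and siTDP43 cells (red); dotted lines mark 2-fold, and HSPA1A, with 0 counts in the IgG libraries, is left out of the panels that use IgG. HSPA1B in WT lies beyond 2-fold over both references (1.55 and 1.26), and HSP90AA1 lies at 2.54 or above in IP and in IgG over input.

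The same ratios were then measured in siTDP43 cells. Over siTDP43 input, 5 of the 10 genes were called higher and 0 lower in IP, beside 26.8% and 25.4% of the 12746 genes tested. HSPA8, HSPD1 and DNAJB1 were below input at an edgeR adjusted p under 0.05 but by less than 2-fold, and total count scaling put HSPA8 past it (log2 -1.02). Over siTDP43 IgG 1 was higher and 0 lower, beside 34% and 15%, and higher genes made up 69.3% of the calls, or 57.8% with the GC trend removed. In IgG over input 3 were higher and 2 lower, beside 24.7% and 41%. Total count scaling took the median of all tested genes for IP over input from -0.09 to -0.43 and the share of higher genes among the calls from 51.3 to 39.0%; for IgG over input these went from -0.58 to -1.13 and from 37.6 to 26.9%.

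HSPA1B was at 116, 107 and 102 CPM in siTDP43 IP against 124, 114 and 121 CPM in input and 69, 83 and 76.9 CPM in IgG. The IP and input libraries overlapped, with a log2 change of 0.02 (SE 0.0842, edgeR adjusted p = 0.868). IP over IgG was 1.35-fold (log2 0.44, SE 0.0984, edgeR adjusted p = 0.000439), below the threshold. HSPA1A had 35, 27 and 17 counts in IP and 0 in the 3 IgG libraries. It was called higher over input (log2 1.58, SE 0.442, edgeR adjusted p = 0.00289) and was at least 2.2-fold higher than 3 counts per IgG library, values that rest on few reads. The first was not called with the GC trend removed and replicate numbers as a block (log2 1.17, edgeR adjusted p = 0.0792), and with limma on log2(FPKM + 1) neither passed 2-fold. HSPA1A was also called lower in IgG than in input, with no fold given because its input level lay below 3 counts per IgG library.

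HSP90AA1 was at 5200, 5240 and 4970 CPM in siTDP43 IP and at 4930, 5040 and 5060 CPM in IgG, so that both pull-downs lay at the same height. IP was 8.57-fold (log2 3.10, edgeR adjusted p = 1.17e-22) and IgG 8.79-fold over input (log2 3.14), with IP at 97.5% of IgG (edgeR adjusted p = 0.468). HSP90AB1 was at 3950, 3950 and 3920 CPM in IP and 3770, 3800 and 3840 CPM in IgG. Neither ratio of IP passed the threshold, at 1.31-fold over input and 98.5% of IgG.

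HSPA8 was at 1800, 1720 and 1750 CPM in IP, 62.2% of input, and at 1140, 1170 and 1010 CPM in IgG, 41.3% of input and called lower (edgeR adjusted p = 3.56e-15), though not with the GC trend removed (log2 -0.58). HSPE1 was at 302, 330 and 305 CPM in IP, 2.49-fold over input, and at 284, 319 and 277 CPM in IgG, 2.46-fold over input. HSPB1 was at 195, 173 and 157 CPM in IP, 2.17-fold over input, and at 308, 263 and 321 CPM in IgG, 3.88-fold over input, so that IP was 56.0% of IgG. HSPH1 was at 126, 130 and 124 CPM in IP, 2.23-fold over input, and at 104, 98.7 and 105 CPM in IgG, 1.90-fold over input, which passed the threshold with the GC trend removed (log2 1.86) or with a stricter filter of 50 counts on average (1.05). With total count scaling the IP over input of HSPE1 (log2 0.98), HSPH1 (0.82) and HSPB1 (0.78) fell below the threshold, and that of HSPB1 was -0.31 with the GC trend removed. The IgG over input calls were likewise lost for HSPE1 with total count scaling (0.75) and for HSPB1 with the GC trend removed (0.38). HSPD1 was at 1250, 1200 and 1200 CPM in IP and 934, 879 and 935 CPM in IgG, and DNAJB1 at 95.9, 96.9 and 99.9 CPM in IP and 156, 161 and 150 CPM in IgG, with neither called, except that HSPD1 in IgG over input passed 2-fold with total count scaling (log2 -1.12).

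Of 66 companions tested in siTDP43 cells, 8 were higher and 21 lower in IP over input, beside 26.8% and 25.4% of all genes. BAG1 (11.3-fold), a nucleotide exchange factor of HSP70, and LONP1 (5.54-fold), a mitochondrial protease, rose most by the naming rule, and DNAJB4 (8.73%) and HSPA4L (15.1%) fell. DNAJB4 was at 1.04, 0.405 and 5.23 CPM in IP, and its log2 change of -3.52 was -4.89 without the third library. Against IgG 17 were higher and 5 lower, beside 34% and 15% of all genes, with CLPX and BAG4 (4.47-fold) named among the higher, and HYOU1 (36.0%) and CLPP (40.8%) among the lower. CLPX, a subunit of a mitochondrial protease, had at most 2 counts in a siTDP43 IgG library, so no fold is given for it in any ratio over or of this group. In IgG over input 10 were higher and 33 lower, beside 24.7% and 41% of all genes, with BAG1 (15.6-fold), LONP1 (7.30-fold), CLPX and DNAJB9 (7.58%) named. DNAJB9 had at most 8 counts in an IgG library, and its log2 change of -3.72 was -4.68 without the third of them. Log2 changes of IP over input were -0.82 for HSPA5, 0.00 for HSP90B1, -0.88 for HSPA9, 1.42 for BAG3, 0.29 for HSF1 and -1.43 for STIP1, of which BAG3 was called higher and STIP1 lower. Over IgG they were 0.63, -0.26, 0.12, 0.19, -0.69 and -0.28, with none called, and for IgG over input -1.44, 0.25, -0.99, 1.23, 0.98 and -1.15, with HSPA5 and STIP1 called lower and BAG3 higher. With the GC trend removed HSPA5 (-0.83) and STIP1 (-0.92) in IgG over input were no longer called. BAG3 was not called in IP over input with limma on log2(FPKM + 1) (0.81), nor in IgG over input with total count scaling (0.68), all libraries in the fit (0.99), limma on log2(FPKM + 1) (0.445) or without the second siTDP43 IgG library (0.93). With total count scaling HSPA5 (-1.16) and HSPA9 (-1.21) in IP over input and HSPA9 in IgG over input (-1.54) passed the threshold, HSF1 in IP over input turned to -0.05 and HSP90B1 in IgG over input to -0.296. HSPA9 in IgG over input lay at the threshold and was called in 9 alternatives, at -1.0 to -1.54, without the first or second siTDP43 input library and without the first siTDP43 IgG library among them. HSF1 in IgG over input was called at 1.06 and 1.05 without the first siTDP43 input or IgG library, and was -0.51 with the GC trend removed.

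Last, the difference between siTDP43 and WT in each ratio was tested as an interaction in all 17 libraries. For IP over input 4 of the 10 genes rose and 1 fell, beside 31.5% and 36.3% of the 15165 genes tested. For IP over IgG 5 rose and 4 fell, beside 34.9% and 25.9%. For IgG over input 4 rose and 5 fell, beside 27% and 37.4%. Genes with a higher ratio made up 46.4, 57.4 and 41.9% of all calls in the 3 differences, and with the GC trend removed 44.9% in the second and 54.3% in the third, while limma on log2(FPKM + 1) gave 34% in the first. DESeq2 gave 47.9% in the second and 46.5% in the third. It took the median of all genes from 0.24 to -0.13 in the second and from -0.48 to -0.02 in the third. HSPA1A has no estimate in the last 2 differences, since its IgG libraries held 0 counts in both conditions. The 3 differences share libraries and are not independent of each other.

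HSPA1B was the gene of the 10 whose IP ratio was called lower in siTDP43 over both references by edgeR. Its log2 ratio of IP over input was lower by 1.68 (SE 0.1, edgeR adjusted p = 2.52e-17) and that of IP over IgG by 0.77 (SE 0.121, edgeR adjusted p = 7.13e-07). Its IgG over input was also lower, by 0.91 (SE 0.118, edgeR adjusted p = 1.2e-08). Over the 29 alternatives these values stayed below 0 and called, at -1.98 to -1.42 for IP over input and -0.99 to -0.71 for IP over IgG.

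For HSPA8 the difference of IP over input was 1.24 (SE 0.0756, edgeR adjusted p = 5.34e-17) and that of IgG over input 0.89. The difference of IP over IgG was 0.35, was not called by DESeq2 (0.13), and turned to -0.37 with the GC trend removed. HSP90AB1 had a difference of IP over input of -0.05 (edgeR adjusted p = 0.497), whereas that of IP over IgG was 1.19 and that of IgG over input -1.24. With total count scaling its first difference was called at -0.34. HSPH1 showed the same order, with 0.16, 1.16 and -0.996, but with the GC trend removed the last 2 were 0.15 and -0.06 and not called. HSP90AA1 had 0.41, 0.995 and -0.59, and HSPD1 0.33, 1.08 and -0.745, in which the IgG over input values turned to 0.06 and 0.07 with the GC trend removed. For both genes IP over input was no longer called with total count scaling (0.11 and 0.04).

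DNAJB1, HSPB1 and HSPE1 formed the group in which IgG over input was higher in siTDP43 and IP over IgG lower. DNAJB1 had differences of 0.97 and -1.14, HSPB1 of 1.38 and -1.23, and HSPE1 of 1.42 and -0.66. Their differences of IP over input were -0.17, 0.15 and 0.755, of which that of HSPE1 was called (edgeR adjusted p = 2.04e-07), and that of DNAJB1 was called at -0.47 with total count scaling. The IgG libraries enter both of these differences, with opposite sign.

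**Figure D5:**
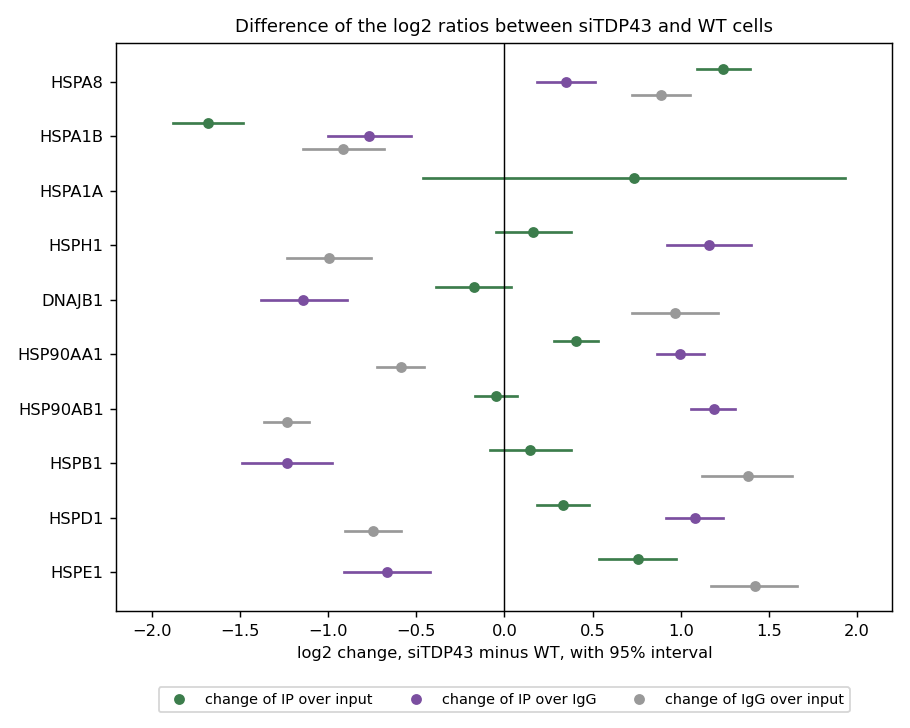
Difference (siTDP43 minus WT) of the log2 ratios IP over input (green), IP over IgG (purple) and IgG over input (grey) for each chaperone gene, with 95% intervals from the fit of 17 libraries; HSPA1A has a value for IP over input alone. HSPA1B lies below 0 in the 3 ratios (-1.68, -0.77 and -0.91) and HSPA8 above 0 in the 3.

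Of the 70 companions tested, 36 rose and 21 fell in the difference of IP over input, beside 31.5% and 36.3% of all genes, including 8 of 8 TRiC subunits, which rose with a median of 0.84. In IP over IgG 41 rose and 15 fell, beside 34.9% and 25.9%, and in IgG over input 17 rose and 36 fell, beside 27% and 37.4%. For IP over input the genes named by the rule were DNAJB2 (2.23, but 0.29 and not called with limma on log2(FPKM + 1)) and BAG1 (2.17), which rose, and PDIA3 (-2.42) and HYOU1 (-1.84), which fell. For IP over IgG they were CLPX, CLPB (3.94), HSPBP1 (-2.19) and HYOU1 (-2.04), and for IgG over input STUB1 (3.20), BAG1 (2.96), CLPX and BAG4 (-3.71), with no value for CLPX for the reason above. The differences of IP over input were 0.37 for HSPA5, -0.99 for HSP90B1, 0.20 for HSPA9, 0.74 for BAG3, -0.34 for HSF1 and -0.89 for STIP1. Those of IP over IgG were 1.33, 0.35, 0.88, 1.34, -1.43 and 0.71 in that order, and those of IgG over input -0.96, -1.34, -0.68, -0.60, 1.09 and -1.60, where BAG3 alone did not pass the test. In IP over input the calls of HSPA5 (0.07) and BAG3 (0.44) were lost with total count scaling, and HSPA9 turned to -0.09. HSPA9 was also not called with DESeq2 size factors (0.14), nor without the second WT input, the first siTDP43 input or the first WT IP library (0.17 to 0.18). BAG3 was not called without the first siTDP43 IP library (0.57). HSF1 was not called without any 1 of the WT inputs, the first siTDP43 input, the first or the third WT IP, or the second or the third siTDP43 IP library (-0.35 to -0.23). In IP over IgG the GC trend removed took HSPA9 to 0.12 without a call and HSP90B1 to -0.69, and in IgG over input HSPA9 to 0.08. HSP90B1 in IP over IgG was also not called with DESeq2 (0.122) or its size factors (0.121). BAG3 in IgG over input was called at -0.92 with total count scaling, and at -0.715 and -0.88 without the second siTDP43 input or IgG library.

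Across the 17 libraries the profiles of the members were not alike. Pearson's r of log2 CPM was 0.76 between HSPA8 and HSPD1, 0.70 between HSP90AB1 and HSP90AA1 and 0.89 between HSP90AB1 and HSPH1, but -0.66 between HSPA8 and HSPA1B, -0.83 between HSPD1 and HSPB1 and -0.18 between HSPD1 and HSPE1. Among 10140 genes with a mean of at least 100 counts, the profiles most like HSPA8 were those of PARK7 (0.9951), NDUFA8 (0.9903) and SNAPIN (0.9888). Those most like HSP90AB1 were MTF2 (0.9792), TSNAX (0.9598) and GDPD1 (0.9564), and those most like HSPD1 were ST13 (0.9838), H3F3B (0.9798) and CCT6A (0.978). ST13 is a partner of HSP70 and CCT6A a TRiC subunit. These values describe likeness over libraries that fall into 6 groups and share depth and pull-down, and carry no test.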

How the data were processed

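Raw read counts per gene for 17 libraries (input, anti-ac4C IP and IgG pull-downs of WT and siTDP43 293T cells) were used as the authors deposited them in 1 table. Per the labels' processing notes, reads were trimmed with Trim Galore 0.6.7, aligned with STAR 2.7.10a and counted with featureCounts 2.0.2, after oligo(dT) selection and Smart-seq2 amplification. The notes list a mouse build, but the gene coordinates are those of human hg19: 96.2% of 199261 introns had splice letters in GRCh37. The annotation release, strand setting and handling of read pairs were not given in the sources used here. Of counts from 1 to 20, 81.3 to 95.9% per library were even, so counts may hold both mates of a pair, and halved counts were tried.

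Groups were taken from the labels. Genes were filtered with filterByExpr (minimum count 10), scaled by TMM and tested by quasi-likelihood in edgeR 4.0.16 (R 4.3.3) with Benjamini-Hochberg adjustment, in 4 fits: the inputs, the WT libraries, the siTDP43 libraries, and all 17 for differences between conditions. Enrichment within a condition needed an adjusted p under 0.05 and 2-fold, other comparisons an adjusted p under 0.05. A gene with 0 counts in a group was set against 3 counts per library. Alternatives were DESeq2 1.42.0 and its size factors, total counts, other filters, other libraries in the fit, removal of a GC trend, limma 3.58.1 on log2(FPKM + 1) computed from the counts, HSPA1A and HSPA1B summed, replicate numbers as a block, and each library left out. The code was tested on simulated data. Figures were drawn with Python 3.11.15.

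The 10 genes and all lists (companion chaperones by textbook membership and 10 markers of 293T cells) were chosen with earlier results of these data known. Named companions were, in each comparison and direction, the 2 called genes with the largest change, a mean of at least 100 counts and, for comparisons of 2 groups, no overlap of libraries, plus HSPA5, HSP90B1, HSPA9, BAG3, HSF1 and STIP1. Pairs of libraries with the same number had residual correlations of -0.0244 to 0.0727 and were not treated as pairs. Counting error is small at these depths except for HSPA1A and in the siTDP43 IgG libraries. There HSPA1B had 188 to 216 counts and HSPH1 244 to 296. A check on markers of other cell types is not reported here.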

Additional observations from a re-analysis of the deposited data

Results flagged for a closer look

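The pull-down ratios of these chaperone genes that differed between siTDP43 and WT cells, by the interaction test in edgeR (adjusted p under 0.05, n = 17 libraries), were the following, each as siTDP43 minus WT on the log2 scale. In IP over input the difference was -1.68 for HSPA1B, 1.24 for HSPA8, 0.408 for HSP90AA1, 0.333 for HSPD1 and 0.755 for HSPE1. In IP over IgG it was -0.767 for HSPA1B, 0.35 for HSPA8, 1.16 for HSPH1, -1.14 for DNAJB1, 0.995 for HSP90AA1, 1.19 for HSP90AB1, -1.23 for HSPB1, 1.08 for HSPD1 and -0.663 for HSPE1. In IgG over input it was -0.914 for HSPA1B, 0.889 for HSPA8, -0.996 for HSPH1, 0.966 for DNAJB1, -0.588 for HSP90AA1, -1.24 for HSP90AB1, 1.38 for HSPB1, -0.745 for HSPD1 and 1.42 for HSPE1. These ratios share libraries, and the part played by the lower depth of the siTDP43 pull-downs (8610070 to 15736165 counts in IP and 3013989 to 3436811 in IgG, against 19615316 to 21066215 and 9022250 to 9466855 in WT) was not tested.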

How the results depend on the processing

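Of the single values of the 10 genes under the alternatives, 2076 kept direction and call, 34 lost the call, 22 gained it and 74 turned sign, and of the counts of called genes 859 stayed within 1.5 times and 53 did not. HSPA1B in WT IP over input stayed called in all alternatives (log2 1.02 to 1.65). The causes of the changes below were not tested. Depth limits HSPA1A, which had at most 61 counts in a library, and the IgG libraries, and IP and IgG RNA had been too scarce to quantify before amplification. With total count scaling the median of all genes went from 0.01 to 0.12 in WT IP over input, from 0.29 to 0.42 in WT IP over IgG, from 0.33 to 0.54 in siTDP43 IP over IgG, from -0.19 to -0.48 in the difference of IP over input and from -0.48 to -0.76 in that of IgG over input. The labels do not say whether libraries with the same replicate number share a preparation or batch, and no pair correlated above 0.1. With replicate numbers as a block no single value changed its call, and of the counts, the companions higher in the difference of IP over input went from 36 to 37.

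Values that turned sign in the inputs were HSPA1A with the GC trend removed (0.095, with the block 0.101), HSPB1 likewise (0.194 and 0.196), HSPA1B with total counts (-0.058), the filter at a mean of 50 counts (-0.014) and FPKM (-0.057), and HSPE1 with total counts (-0.009) and FPKM (-0.016). Leaving out 1 library gave -0.003 to 0.066 for HSPA1B and -0.033 to 0.149 for HSPE1.

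In WT, removing the GC trend, without and with the block, turned IP over input of HSPB1 (-0.643 and -0.644) and HSF1 (-0.922 and -0.923), IP over IgG of HSPB1 (-0.274 and -0.316), and IgG over input of HSPB1 (-0.368 and -0.329) and HSPD1 (0.334 and 0.349). HSPD1 was also turned by the filter at a mean of 50 counts (0.043), and leaving out 1 library gave -0.099 to 0.025.

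In siTDP43 IP over input, HSPA1B was -0.061 with DESeq2, -0.062 with its size factors, -0.324 with total counts, -0.012 without a filter, -0.138 with all libraries in the fit, -0.297 with the GC trend removed, -0.297 with the block added, -0.316 with FPKM and -0.024 to 0.058 with 1 library left out. With the GC trend removed, without and with the block, HSPB1 was -0.306 and -0.307, HSPD1 0.079 and 0.078, HSP90B1 0.349 and 0.347, and HSF1 -1.06 and -1.06. HSP90B1 was 0.082 with the filter at a mean of 50 counts, 0.01 with halved counts and -0.04 to 0.051 with 1 library left out, and HSF1 was -0.053 with total counts and -0.055 with FPKM. In siTDP43 IP over IgG, total counts, all libraries in the fit and FPKM gave 0.175, 0.036 and 0.174 for HSP90AA1 and 0.189, 0.05 and 0.188 for HSP90AB1. Removing the GC trend, without and with the block, gave -0.362 and -0.363 for HSPH1, -0.192 and -0.192 for HSPD1, -0.293 and -0.293 for HSPE1 and -0.397 and -0.397 for HSPA9. HSPE1 was -0.001 with DESeq2, -0.001 with its size factors, -0.024 with the filter at a mean of 50 counts and -0.023 to 0.087 with 1 library left out, and BAG3 was then -0.143 to 0.477. In siTDP43 IgG over input, total counts and FPKM gave -0.04 and -0.034 for DNAJB1, -0.134 and -0.133 for HSP90AB1 and -0.296 and -0.294 for HSP90B1, and removing the GC trend gave 0.27 and 0.27 for HSPD1 and -0.508 and -0.509 for HSF1.

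In the difference of IP over input, total counts and FPKM gave -0.131 and -0.104 for HSPH1, -0.152 and -0.157 for HSPB1 and -0.092 and -0.093 for HSPA9, and removing the GC trend, without and with the block, gave 0.041 and 0.044 for DNAJB1 and 0.002 and 0.002 for HSP90AB1. In that of IP over IgG the latter gave -0.368 and -0.391 for HSPA8 and -0.691 and -0.705 for HSP90B1, and in that of IgG over input 0.061 and 0.065 for HSP90AA1, 0.073 and 0.077 for HSPD1 and 0.081 and 0.084 for HSPA9.

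Among counts of called genes, members lower in the inputs went from 1 to 0 with the GC trend removed, with or without the block. In WT IP over IgG, members higher went from 2 to 1 with the filter at a mean of 50 counts, the GC trend removed with or without the block, FPKM, or HSPA1A and HSPA1B summed, members lower went from 1 to 2 with the GC trend removed and were 1 to 2 with 1 library left out, and companions higher went from 8 to 5 with the filter at a mean of 50 counts. In WT IgG over input, members lower went from 2 to 1 with the filter at a mean of 50 counts, FPKM or the sum. In siTDP43 IP over input, members higher went from 5 to 2 with total counts, 3 with all libraries in the fit, 3 with the GC trend removed and the block, and 1 with FPKM, members lower from 0 to 1 and companions lower from 21 to 32 with total counts or FPKM. In siTDP43 IP over IgG, members higher went from 1 to 0 with the filter at a mean of 50 counts, FPKM or the sum, companions higher from 17 to 11 with the GC trend removed, and companions lower from 5 to 3 with total counts or FPKM and to 10 with the GC trend removed. In siTDP43 IgG over input, members lower went from 2 to 1 with the filter at a mean of 50 counts, the GC trend removed or the sum, companions higher from 10 to 6 with FPKM and companions lower from 33 to 15 with the GC trend removed and 14 with the block added. In the difference of IP over input, members higher went from 4 to 2 with total counts or FPKM and members lower from 1 to 3 with those or DESeq2. With the GC trend removed, members higher in the difference of IP over IgG went from 5 to 3 and companions lower from 15 to 23, and in that of IgG over input members lower went from 5 to 2, companions higher from 17 to 27 and companions lower from 36 to 23.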
